A study of Rattus norvegicus with 34 samples.

Results

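The enzymes followed here are a small group that makes, activates or inactivates steroid hormones: Hsd3b5, Hsd11b1, Hsd17b2, Hsd17b6, Srd5a1 and Cyp17a1. They were chosen by gene symbol from the annotation of a rat whole-genome array, and each gene was to be represented by its probe set of highest mean signal in a strain. Of the 6 genes, 5 had a probe set, each exactly 1, among 11984 genes with a probe set in Brown Norway and 11943 in F344 rats. Srd5a1, a steroid 5-alpha-reductase, was not analysed here.

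Livers came from 34 male rats of the inbred strains F344 and Brown Norway, and every animal had an array of its own. There were 4 F344 rats of each age, 6, 11, 18 and 24 months, which received no treatment and had been moved from their supplier 1 week before they were killed. The Brown Norway rats were housed singly, were 4, 12 or 24 months old, and either received the solvent toluene by oral gavage at 1 g/kg, with livers taken 4 h later, or were untreated controls, with 3 animals in each group. The study asked how age changes the enzymes that metabolise foreign compounds.

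The liver sets the exposure of other tissues to steroid hormones by reducing, oxidising and conjugating them. The oxidoreductases that do this work at the 3, 11 and 17 positions of the steroid, and the direction each one runs in the cell depends on its cofactor, NADPH for reduction and NAD+ for oxidation. In the rat many of these enzymes differ between the sexes, because the pituitary secretes growth hormone in pulses in males and more continuously in females.

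Signals are the deposited linear probe set intensities, which have no absolute unit. They were set to at least 32, the floor, and taken to log2 for the tests, in which the array numbers per group limit the precision. The threshold for a call was an adjusted p of 0.05 in limma over all genes tested, 8584 in Brown Norway and 9206 in F344 rats. All 5 measured enzymes were tested in both strains. Array medians were 44.9 to 47.1 in F344 and 35.6 to 38.3 in Brown Norway rats, so the strains were not on a common scale and levels are given side by side without a test. The ratio of 3' to 5' signal of Gapdh, a measure of RNA integrity, was 1.31 to 7.33 on F344 and 0.774 to 0.944 on Brown Norway arrays. It was above 2.5 on 5 F344 arrays, of which 1 was from 18 months, 2 were from 11 months and 2 from 6 months.

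At 24 months, F344 livers had a mean Hsd3b5 signal of 43.3 ± 24.1, close to the floor, against 2584 ± 369.6 at 6 months (SD, n = 4 each). Hsd11b1 was 2.05-fold and Hsd17b2 2.83-fold lower than at 6 months. The group means of Hsd17b2 also differed between the younger ages, but no comparison of those ages passed. Hsd17b6 and Cyp17a1 did not pass in any comparison. In F344 rats Cyp17a1 was below the floor on 11 of 16 arrays, too close to it to show a change. Of the 5 enzymes, 3 passed in F344 rats of 24 against 6 months, all 3 lower, where 7.4% of all genes tested passed and 2.97% passed and were lower. Under 7 of 21 alternatives, 5 of which leave out a single array, 2 enzymes passed in place of 3, without Hsd17b2. The median log2 fold change of the 5 was -1.03, against -0.01 over all genes.

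Hsd3b5 encodes the 3-beta-hydroxysteroid dehydrogenase of adult male rat liver, a form that reduces 3-keto steroids such as dihydrotestosterone. On the arrays of F344 livers its signal was 2869.7, 2861, 2087 and 2519 at 6 months, 2217, 2125, 3054 and 1849.5 at 11 months, and 2391, 1914, 966 and 2719 at 18 months. At 24 months it was 50.6, 37.9, 71.2 and 13.7. Each of the 4 oldest animals was far below each of the 12 younger ones, and the groups did not overlap. The ages of 6, 11 and 18 months overlapped with each other.

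The fall of Hsd3b5 was at least 56.1-fold against 6 months (log2 fold change -5.81, SE 0.29, adjusted p 5.82e-09), since 1 array of the oldest rats lay below the floor. By p and by the size of the fall it ranked 1 among the 9206 genes. The bound was 49.7-fold lower at 24 than at 11 months (adjusted p 9.38e-09) and 40.7-fold lower at 24 than at 18 months (adjusted p 2.12e-08). These 3 comparisons share the 24-month animals. In the order of means, 6, 11 and 18 months had 2584 ± 369.6, 2311 ± 519 and 1998 ± 763 (SD, n = 4 each). These neighbouring ages did not pass, with log2 fold changes of -0.17 for 11 against 6 months (adjusted p 1) and -0.29 for 18 against 11 months (adjusted p 0.805).

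Hsd3b5 lies in a cluster with 4 other Hsd3b genes in the RefSeq annotation: Hsd3b1, Hsd3b2 and Hsd3b3, which are protein coding, and the pseudogene Hsd3b5-ps1. A separate probe set is annotated to 3 other Hsd3b genes together. It read 2.36 to 32.5 on F344 arrays, below the floor on 15 of 16, and 13.9 to 46.2 on Brown Norway arrays, below the floor on 8 of 18. How far related transcripts add to the Hsd3b5 probe set was not tested.

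**Figure D1:**
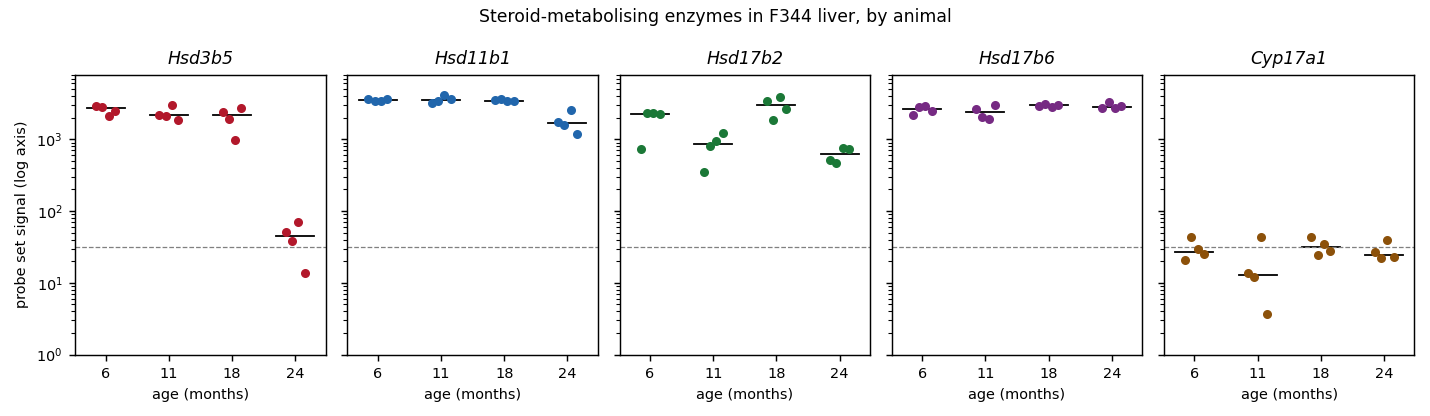
Probe set signal on a log axis in each F344 liver, by age in months, with the median of each group of 4 as a bar and the floor of 32 as a dashed line. Hsd3b5 lay between 13.7 and 71.2 at 24 months and between 966 and 3054 before, and Hsd11b1 was lower at 24 months. Hsd17b2 had group medians that went up and down with age, with no comparison of the younger ages passing. Cyp17a1 stayed around the floor.

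Hsd11b1 encodes the reductase that regenerates active corticosterone from its inert 11-keto form inside liver cells. Its F344 signal was 3616, 3401, 3372 and 3601 at 6 months, 3214, 3431, 4159 and 3627 at 11 months, and 3489, 3654, 3408 and 3375 at 18 months. At 24 months it was 1744, 1598, 2540.1 and 1203. It was steady over the first 3 ages, whose ranges overlapped, and every 24-month animal was below every younger one.

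Hsd11b1 was 2.05-fold lower at 24 than at 6 months (log2 fold change -1.03, SE 0.16, adjusted p 0.00105), 2.10-fold lower than at 11 months (adjusted p 0.00121) and 2.04-fold lower than at 18 months (adjusted p 0.00255). The call against 18 months did not hold in a fit of those 2 groups alone (adjusted p 0.0603). The spread between animals was wider at 24 months, 1771 ± 561, than at 6 months, 3498 ± 129 (SD, n = 4 each). The order of the 4 oldest animals was the same for Hsd11b1 and Hsd3b5: replicate 3 was the highest and replicate 4 the lowest for both genes.

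H6pd encodes the enzyme that supplies Hsd11b1 with NADPH in the endoplasmic reticulum. Its signal averaged 266 ± 38.5 at 24 months and 426 ± 27.4 at 6 months (SD, n = 4 each), a 1.62-fold fall (log2 fold change -0.69, SE 0.16, adjusted p 0.0163). It was the one gene to pass and be lower among 7 steroidogenic enzymes and electron donors tested. Its call was lost when 24-month replicate 1 or 2, or 6-month replicate 2, was left out, with adjusted p up to 0.0567. Hsd11b2, which inactivates corticosterone, had a log2 fold change of 0.60 (adjusted p 0.102).

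Hsd17b2 encodes an oxidative enzyme that inactivates testosterone and oestradiol to their 17-keto forms. Its F344 signal was 734, 2294, 2296 and 2265 at 6 months, 353, 801, 942 and 1241 at 11 months, 3453, 1833, 3834 and 2618 at 18 months, and 509, 472, 763 and 739 at 24 months. The group means alternated with age rather than running one way, in the order 18, 6, 11 and 24 months. No comparison between the younger ages passed. At 6 months 3 animals lay between 2265 and 2296, and 1 lay within the range of the 24-month animals.

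Against 18 months, Hsd17b2 was 4.65-fold lower at 24 months (log2 fold change -2.22, SE 0.40, adjusted p 0.00655), and these groups did not overlap. Against 6 months it was 2.83-fold lower at 24 months (log2 fold change -1.50, SE 0.40, adjusted p 0.0287), with 1 of the 6-month animals inside the 24-month range. Of 21 alternatives 7 lost the call against 6 months. Without 24-month replicate 1 or 2 the adjusted p was 0.0866 or 0.0808, and without 6-month replicate 2, 3 or 4 it was 0.0825, 0.0865 or 0.0772. A floor of 8 gave 0.0514 and no filter on low signals 0.0801.

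No neighbours in that order of Hsd17b2 levels passed: the log2 fold change was 0.71 for 18 against 6 months (adjusted p 0.525), -1.18 for 11 against 6 months (unadjusted p 0.00859, adjusted p 1) and -0.32 for 24 against 11 months (adjusted p 0.702). The step of 1.90 for 18 against 11 months, where the groups did not overlap, missed the threshold (adjusted p 0.0557). It passed under 5 alternatives, among them leaving out 11-month replicate 4 (adjusted p 0.0471).

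Gapdh ratios were set beside the Hsd17b2 signals. The lowest Hsd17b2 array of the 6-month and of the 11-month group had the highest ratio of its group, 4.35 and 7.33. At 18 and 24 months the lowest array, at 1833 and 472, had the lowest ratio of its group, 1.31 and 1.38. An 18-month array with a ratio of 5.31 had a Hsd17b2 signal of 2618, within its group. A link between ratio and signal was not tested. With the ratio as a covariate the log2 fold change for 24 against 6 months was -1.74 (adjusted p 0.00619), and without the 5 arrays above 2.5 it was -1.91 (adjusted p 0.00865). For Hsd3b5 those values were -5.74 and -5.88, and for Hsd11b1 -1.07 and -1.04, and all 4 passed.

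Hsd17b6 encodes an oxidative enzyme of the retinol dehydrogenase family that acts on androstanediol. In F344 livers its signal ranged from 1945 to 3319 over the 16 arrays, a 1.71-fold span. It averaged 2914 ± 287 at 24 months and 2602 ± 319.6 at 6 months (SD, n = 4 each), and the groups overlapped. The log2 fold change was 0.17 with a 95% interval of -0.13 to 0.46 (adjusted p 0.561). Of the enzymes well above the floor in both strains, it was the only one that passed in none of the F344 comparisons.

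Cyp17a1 is a cytochrome P450, not a dehydrogenase, and carries out the 17-hydroxylase and lyase steps of androgen synthesis. Its F344 signal was 21.0, 43.4, 29.2 and 24.9 at 6 months, 13.6, 11.9, 43.6 and 3.72 at 11 months, 43.6, 24.4, 35.2 and 28 at 18 months, and 26.6, 22.4, 39.5 and 23.0 at 24 months. It was below 32 on 11 of the 16 arrays, so no order of ages was read from it. In Brown Norway livers the same probe set gave 1342 to 3429 on all 18 arrays. The lowest Brown Norway array was 30.8 times the highest F344 array, on scales that were set within each strain. Lhcgr, the 1 marker of adrenal cortex and gonad with a probe set out of 8, was below the floor on every array of both strains. The other markers of that list could not be read, and the source of the Cyp17a1 signal was not tested.

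The other 3 F344 comparisons between younger ages held no call among the 5 enzymes. For 11 against 6 months 0% of genes passed, with 357 of 9206 at an unadjusted p under 0.05, of which 1 was a listed enzyme, Hsd17b2. For 18 against 6 months 1.08% of genes passed. Before adjustment 1086 of 9206 genes and 0 of the enzymes were under 0.05. For 18 against 11 months 0.293% of genes passed. Under 0.05 before adjustment were 1025 of 9206 genes and 2 of the enzymes, Hsd17b2 and Hsd17b6. Against 11 months 2 of the 5 enzymes passed at 24 months, both lower, where 4.92% of genes passed and 2.32% passed and were lower. Against 18 months 3 passed, all lower, where 1.76% passed and 0.88% passed and were lower. The median log2 fold change of the enzymes was -0.32 against 11 months and -1.03 against 18 months, and that of all genes was -0.01 and -0.00.

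Markers of other cells were also higher at 24 than at 6 months, some of them already at 18 months. Of 7 hepatocyte markers tested 0 passed, and their summed signal was 41957 to 43146 at 24 months and 40635 to 42750.4 at 6 months. Of 7 Kupffer cell and macrophage markers 3 rose, Cd68, Clec4f and Csf1r, with a summed signal of 3303 to 4342 at 24 months and 2027 to 2909 at 6 months. Of 3 lymphocyte and plasma cell markers tested 2 rose, Ptprc and Gzmk, with a summed signal over 6 markers of 439 to 579 at 24 months and 181 to 247 at 6 months, although Cd3e and Cd3d were below the floor on all arrays of both groups. Of 6 stellate cell and fibroblast markers tested 1 rose, Dcn, with summed signals of 719.6 to 1368 at 24 months and 562 to 973 at 6 months, and Lum and Des were below the floor on all arrays of both groups. Of the 4 sinusoidal endothelium and the 2 bile duct markers tested 0 passed. The endothelial sum was 1389 to 1791 at 24 months and 1506 to 1659 at 6 months, and the bile duct sum was 239.9 to 285 at 24 months and 101 to 183 at 6 months, with Krt7 and Spp1 below the floor on all arrays of both groups. The rises of Clec4f, Csf1r and Dcn were lost on leaving out single arrays: 24-month replicate 1, 3 or 4 or 6-month replicate 1, 2 or 3 for Clec4f, 24-month replicate 1 or 4 or 6-month replicate 1, 2 or 3 for Csf1r, and 24-month replicate 1 or 6-month replicate 3 for Dcn (adjusted p up to 0.0994). At 18 against 6 months, where 0 of the enzymes passed, Cd68 was 1.90-fold and Csf1r 1.62-fold higher (adjusted p 0.0462 and 0.0445), and the summed Kupffer cell and macrophage signal was 3148 to 4608 at 18 months. Those 2 calls were each lost on leaving out single arrays, of 18-month replicates 1, 2 and 3 and 6-month replicates 1, 2 and 3 for both genes and also 18-month replicate 4 for Cd68 (adjusted p up to 0.184). At 24 against 18 months, where 3 enzymes were lower, 0 of 7 Kupffer cell and macrophage markers passed, and 1 of 3 lymphocyte and plasma cell markers, Gzmk, did. At 24 against 11 months, where 2 enzymes were lower, those counts were 0 of 7 and 3 of 3, but the call of Gzmk was lost without 24-month replicate 1 or 2 or 11-month replicate 1, 3 or 4, and that of Jchain without 24-month replicate 2, 3 or 4 or 11-month replicate 1, 3 or 4 (adjusted p up to 0.134). The call of Gzmk against 18 months was lost without 24-month replicate 1 or 2 or 18-month replicate 1, 2 or 3 (adjusted p up to 0.176). In Brown Norway controls of 24 against 4 months, where 0 enzymes passed, 2 of 7 Kupffer cell and macrophage markers rose, C1qb and Cd163, and 1 of 2 lymphocyte and plasma cell markers, Jchain. The summed Kupffer cell and macrophage signal of these controls was 3277 to 6145 at 24 months and 1646 to 2069 at 4 months. The calls of C1qb and Cd163 were lost without any of the 4-month replicates 1, 2 and 3 or 24-month replicate 1, and that of Jchain without 4-month replicate 1 or 3 (adjusted p up to 0.171). The part of these cells in the enzymes' falls was not tested. In whole liver, fewer cells of a type and less RNA per cell cannot be told apart.

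**Figure D2:**
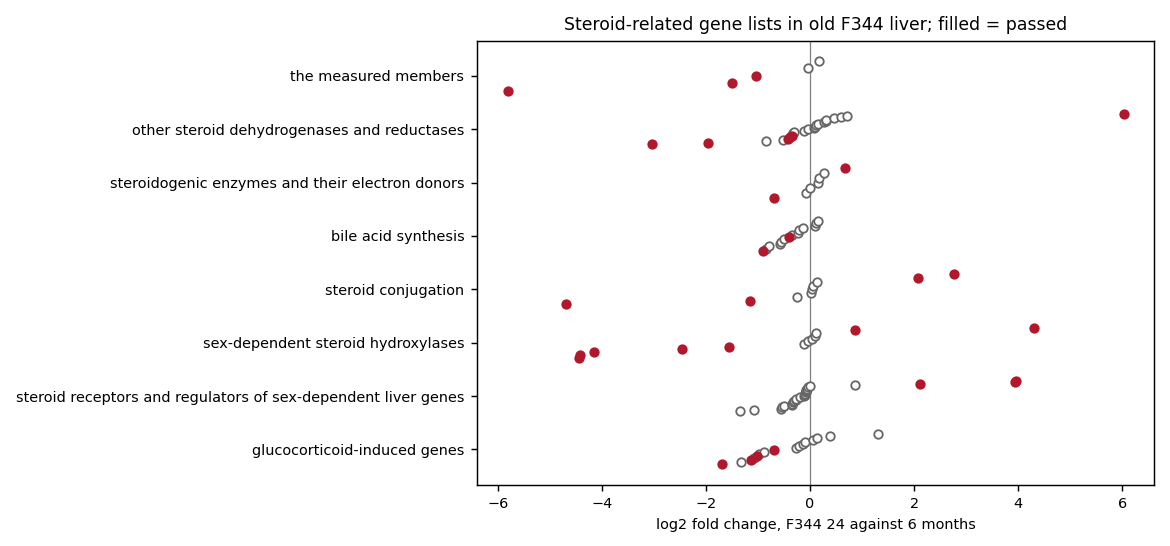
Log2 fold change of F344 livers of 24 against 6 months for the 5 enzymes and for the tested genes of 7 steroid-related lists, with genes that passed filled. The lists of dehydrogenases, conjugating enzymes and hydroxylases hold changes in both directions, while all 3 enzymes that passed were lower.

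The remaining steroid dehydrogenases and reductases showed large changes in a few genes. Of 23 tested, 1 was higher and 5 were lower at 24 than at 6 months, and their median log2 fold change was -0.04, against -0.01 over all genes. Akr1b7, an aldo-keto reductase known from mouse adrenal for detoxifying aldehydes of steroid synthesis, averaged 2183 ± 775 at 24 months and 17.8 ± 6.42 at 6 months (SD, n = 4 each). It was at least 65.0-fold higher (adjusted p 3.03e-08), with all 6-month arrays below the floor. Akr1c3, of the aldo-keto reductase family that reduces keto steroids, averaged 19.6 ± 11.7 at 24 months and 268 ± 68.8 at 6 months. It was lower by at least 8.18-fold (adjusted p 4.36e-07). Rdh16, a retinol dehydrogenase that also oxidises 3-alpha-hydroxysteroids, was at least 3.91-fold lower (adjusted p 0.00168), and Hsd17b10, a mitochondrial enzyme, 1.33-fold lower (adjusted p 0.018). With the Gapdh ratio as a covariate 6 of the list were lower in place of 5, and without the arrays of high ratio 3 were. The call of Hsd17b10 was lost without 24-month replicate 4 or 6-month replicate 2 or 3, with adjusted p up to 0.0599.

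Akr1c3 had already passed at 18 months, at 136 ± 46.1 against 268 ± 68.8 at 6 months (SD, n = 4 each), 2.02-fold lower (adjusted p 0.0462). That call was lost under 13 of 21 alternatives, with adjusted p up to 0.321. Among them, it was lost without 18-month replicate 2 or 3 or 6-month replicate 1, 2 or 3, with adjusted p up to 0.164.

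Conjugation, which makes steroids soluble for excretion, changed in both directions at 24 against 6 months: of 9 genes tested 2 were higher and 2 lower. Those counts were the same with the Gapdh ratio as a covariate, and 1 higher and 1 lower without the arrays of high ratio. Sult1e1, the oestrogen sulfotransferase, averaged 279.8 ± 157 at 24 months and 6365 ± 312 at 6 months, 25.8-fold lower (adjusted p 6.25e-08). Sts, which removes sulfate from steroids, was 2.22-fold lower (adjusted p 0.018), a call lost without 24-month replicate 1 or 2 or 6-month replicate 1 (adjusted p up to 0.0615). The hydroxysteroid sulfotransferases Sult2a6 and Sult2a2 were higher, 6.81-fold (adjusted p 0.00292) and at least 4.21-fold (adjusted p 0.00226).

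Steroid hydroxylases that differ between the sexes in rats also split, with 2 of 12 higher and 5 lower. Cyp2c11, the main hydroxylase of male liver, averaged 316 ± 191 at 24 months and 5855 ± 299 at 6 months, 21.7-fold lower (adjusted p 1.85e-07). Cyp3a2 and Cyp2a2, also male-type forms, were 21.4-fold and 17.7-fold lower (adjusted p 1.07e-07 and 0.000124). Cyp2c12, the female form, averaged 6437 ± 783 at 24 months and 332 ± 79.1 at 6 months, 19.7-fold higher (adjusted p 0.000206). Among 25 receptors and regulators 3 were higher and 0 lower. They were Trim24, a transcriptional cofactor, 15.2-fold, Prlr, the prolactin receptor, 15.5-fold, and Cux2, a repressor of male-type genes in mouse liver, at least 4.32-fold. With the Gapdh ratio as a covariate, and likewise without the arrays of high ratio, 3 of that list were higher and 2 lower. Prlr had already passed at 18 months, at 318 ± 111 against 61.0 ± 29.0 at 6 months (SD, n = 4 each). It was 5.36-fold higher (adjusted p 0.0143), a call lost on leaving out 3 of 8 single arrays (adjusted p up to 0.0706).

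Of 14 genes of bile acid synthesis 2 were lower and 0 higher, with a median log2 fold change of -0.38, against -0.01 over all genes. Amacr, a racemase of side chain shortening, was 1.86-fold lower (adjusted p 0.00219), and Baat, which joins bile acids to amino acids, 1.33-fold lower (adjusted p 0.0142, and 0.0561 without 24-month replicate 1). Among steroidogenic enzymes and electron donors Fdx1, the electron donor of mitochondrial steroid hydroxylases, was the 1 gene higher, 1.59-fold (adjusted p 0.0125), and 1 gene of the list was still higher with the Gapdh ratio as a covariate but 0 without the arrays of high ratio.

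Genes known to be induced by glucocorticoids, the hormones that Hsd11b1 activates, were read from a separate list of 16 tested genes. At 24 against 6 months 4 were lower and 0 higher, where 2.97% of all genes passed and were lower. The median log2 fold change of the list was -0.49, against -0.01 over all genes. Klf9, a transcription factor, was 2.03-fold lower (adjusted p 0.0105), and Pck1, the entry enzyme of gluconeogenesis, 1.62-fold lower (adjusted p 0.0191). Dusp1, a phosphatase, was 2.20-fold lower (adjusted p 0.0227), and Mt1, a metallothionein, at least 3.24-fold lower (adjusted p 0.0316). Leaving out 1 array lost the call of Pck1 (6-month replicate 2 or 3, adjusted p up to 0.0575), of Dusp1 (24-month replicate 1 or 2 or 6-month replicate 3 or 4, up to 0.0734) and of Mt1 (24-month replicate 1, 2 or 3 or 6-month replicate 1 or 3, up to 0.107). Over all 21 alternatives Pck1 was lost under 4, Dusp1 under 7 and Mt1 under 8. The adjusted p then reached 0.143, 0.0734 and 0.520. The other 12 did not pass and had log2 fold changes of -1.33, for Sds, to 1.31, for Igfbp1. Tat, Tsc22d3 and Fkbp5 were among them, at 0.13, -0.10 and -0.22. A link of the listed genes to the fall of Hsd11b1 was not tested. With the Gapdh ratio as a covariate 5 of the list were lower in place of 4, and without the 5 arrays of high ratio, which leaves fewer animals, 1 was. Against 11 months 0 were lower and 1 was higher, Igfbp1, 3.24-fold (adjusted p 0.0272), a call lost without 24-month replicate 1, 2 or 4 or 11-month replicate 1 or 3 (adjusted p up to 0.0885). Against 18 months 4 were lower and 0 higher. They were Klf9, 2.64-fold lower (adjusted p 0.00255), Mt2A, 4.88-fold lower (adjusted p 0.00655), Pck1, 1.71-fold lower (adjusted p 0.0279), and Mt1, at least 3.73-fold lower (adjusted p 0.0449). The calls of Pck1 and Mt1 against 18 months were each lost on leaving out single arrays: 24-month replicate 1 or 4 or 18-month replicate 1 or 4 for Pck1, and 24-month replicate 1, 2 or 3 or 18-month replicate 1, 3 or 4 for Mt1 (adjusted p up to 0.0889 and 0.147). Over all 21 alternatives Pck1 was lost under 9 and Mt1 under 13, with adjusted p up to 0.170 and 0.655.

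For each of the 3 enzymes that passed, the genes of closest pattern were found by the root mean square difference in log2 signal over the 16 F344 arrays, each gene centred on its own mean, among 9201 other genes. For Hsd3b5 they were Sult1e1 at 0.57, Cyp3a2, a male-type steroid hydroxylase, at 0.62 and Obp3 at 0.65. The differences were small beside the 2.46 by which Hsd3b5 itself varied about its mean. Since they were chosen for likeness over these arrays, their low signals at 24 months follow from the choice. Cyp3a2 averaged 272 ± 186 at 24 months and 5021 ± 705 at 6 months.

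For Hsd11b1 the closest were Epb41l1, a membrane skeleton protein, at 0.13, Cyp2b3, a cytochrome P450, at 0.18 and Bco1, which cleaves beta-carotene, at 0.19, beside its own variation of 0.50. Cyp2b3 averaged 2532 ± 1068 at 24 months and 4466 ± 271 at 6 months (log2 fold change -0.90, adjusted p 0.00832). Epb41l1 and Bco1 were dim, at 43.8 ± 17.5 and 42.7 ± 14.5 at 24 months, and the call of Bco1 was lost without 24-month replicate 1 or 4 (adjusted p up to 0.0559).

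For Hsd17b2 the closest were Mt2A, a metallothionein, at 0.51, Nr1d2 at 0.55 and Nr1d1 at 0.58, beside its own variation of 1.05. Nr1d1 and Nr1d2 encode haem-binding repressors of the circadian clock. Mt2A averaged 394 ± 219 at 24 months and 792 ± 311 at 6 months and did not pass (log2 fold change -1.07, adjusted p 0.133). Nr1d2 averaged 142 ± 70.5 at 24 months and 321 ± 69.4 at 6 months (log2 fold change -1.25, adjusted p 0.00415). The likeness of these genes to Hsd17b2 and to Hsd11b1 was fixed by the choice in the same way.

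**Figure D3:**
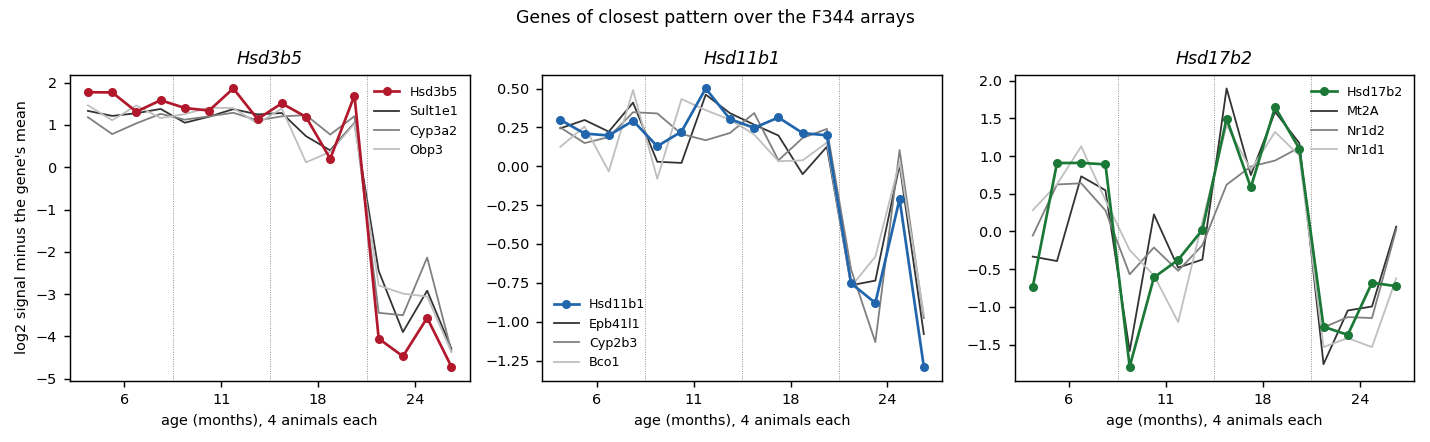
Log2 signal minus the gene's mean in 16 F344 livers, ordered by age with 4 animals each, for Hsd3b5, Hsd11b1 and Hsd17b2 and the 3 genes closest to each. The genes closest to Hsd3b5 were low at 24 months, and some 18-month animals were below the 6-month ones for Sult1e1 and Obp3, those closest to Hsd11b1 were low in 3 of the 4 oldest animals, and those closest to Hsd17b2 were lower at 11 and 24 months.

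In Brown Norway rats none of the 5 enzymes passed in any comparison of ages or of toluene with control. Among controls of 24 against 4 months 0.245% of genes passed, and for 24 against 12 months 0.0233%. For 12 against 4 months 0% passed, with 335 of 8584 genes at an unadjusted p under 0.05. Before adjustment 1 enzyme was under 0.05 for 12 against 4 months, Hsd17b6, 1 for 24 against 4 months, Hsd3b5, and 0 for 24 against 12 months. Over all genes 1000 of 8584 were under 0.05 for 24 against 4 months and 1249 for 24 against 12 months.

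Hsd3b5 signals of the control rats were 3409, 3255 and 4125 at 4 months, 2993, 2948 and 3628 at 12 months, and 3348, 2994 and 1501 at 24 months. The 24-month animals overlapped with the younger ones, and 1 of them was low. The log2 fold change of 24 against 4 months was -0.54 with a 95% interval of -1.06 to -0.01 (unadjusted p 0.045, adjusted p 0.413), and without that animal, replicate 3, it was -0.18. The same animal was the lowest control for Hsd11b1, at 2088, against 3146 and 3698 in its group.

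Hsd11b1 averaged 2977 ± 818 at 24 months and 3365 ± 104 at 4 months in control rats (SD, n = 3 each), with a log2 fold change of -0.22 (95% interval -0.59 to 0.16, adjusted p 0.723). Hsd17b6 signals of control rats were 1598, 3098 and 2425 at 4 months, 3232, 3649 and 3737 at 12 months, and 2529.9, 3351 and 3021 at 24 months. All 12-month animals were above all 4-month ones, with a log2 fold change of 0.63 (unadjusted p 0.00363, adjusted p 0.961). How many of all genes separated in this way was not counted. Cyp17a1 had log2 fold changes of 0.29 for 12 and 0.23 for 24 against 4 months (adjusted p 0.961 and 0.846).

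Hsd17b2 varied widely among Brown Norway controls. Its control signals were 442, 119 and 672 at 4 months, 705, 341 and 351 at 12 months, and 229, 229 and 924 at 24 months. The groups overlapped throughout, and the log2 fold change of 24 against 4 months was 0.15 with a wide 95% interval of -1.53 to 1.83 (adjusted p 0.99).

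**Figure D4:**
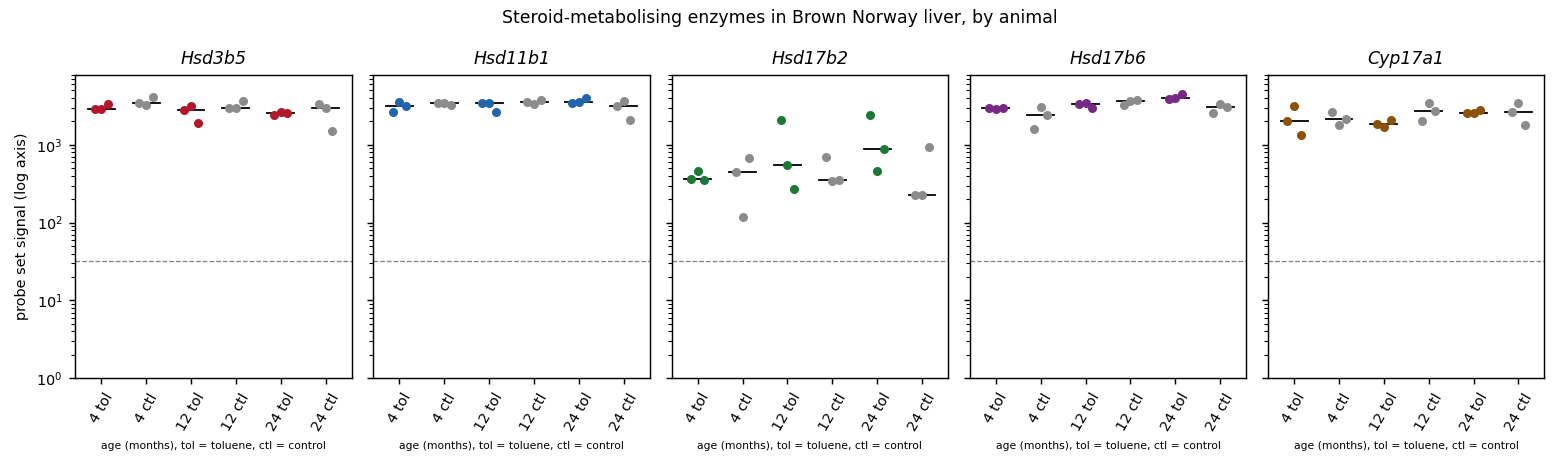
Probe set signal on a log axis in each Brown Norway liver by age in months, with toluene-dosed rats in colour left of control rats in grey, the median of each group of 3 as a bar and the floor of 32 as a dashed line. Hsd17b2 ranged from 119 to 2398, while the other 4 enzymes stayed between 1342 and 4510.1 on all arrays.

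Toluene, 4 h after the dose, changed none of the 5 enzymes past the threshold at 4, 12 or 24 months, where 0.0233%, 0.0349% and 0.0582% of all genes passed. At an unadjusted p under 0.05 there were 0 of the 5 at 4 and at 12 months, and 1 at 24 months, Hsd17b6. Of all 8584 genes, 271, 396 and 953 were under 0.05 at 4, 12 and 24 months. At 24 months Hsd17b6 was 3891, 3952 and 4510.1 in dosed rats, against 2529.9, 3351 and 3021 in control rats. All dosed animals were above all controls, with a log2 fold change of 0.48 and a 95% interval of 0.09 to 0.87 (unadjusted p 0.0188, adjusted p 0.361). How many of all genes separated in this way was not counted. At 4 months the log2 fold change of Hsd17b6 was 0.35 and at 12 months -0.12.

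Hsd17b2 after toluene was 361, 463 and 352 at 4 months, 2068, 548 and 275 at 12 months, and 2398, 464 and 889 at 24 months. A single dosed animal was high at 12 and at 24 months, and dosed and control ranges overlapped at each age. The log2 fold changes were 0.25, 0.63 and 1.45 (adjusted p 1, 0.948 and 0.514), and the 95% interval at 24 months was -0.23 to 3.13.

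Hsd3b5 after toluene was 2857, 2899 and 3385 at 4 months, 2783, 3131 and 1889.7 at 12 months, and 2419, 2656 and 2547 at 24 months. Dosed and control animals overlapped at each age, and the 95% intervals of the 3 log2 fold changes lay between -0.84 and 0.56. Hsd11b1 had log2 fold changes of -0.12, -0.17 and 0.33 and Cyp17a1 of -0.07, -0.49 and 0.06 at 4, 12 and 24 months, each with an adjusted p of 0.51 or higher. Dosed replicate 3 of 12 months was the lowest of its group for both Hsd3b5, at 1889.7, and Hsd11b1, at 2654.

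The toluene effect was also compared between ages. For 24 against 4 months 0.0116% of genes and for 12 against 4 months 0% of genes passed. At an unadjusted p under 0.05 there were 420 of 8584 genes in the first and 270 in the second. Of the 5 enzymes 0 were under 0.05 before adjustment in either. Both comparisons share the 4-month animals. The largest difference was 1.21 for Hsd17b2 at 24 against 4 months, with a 95% interval of -1.17 to 3.58 (adjusted p 0.982).

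Of the lists of steroid-related genes, 1 gene passed in Brown Norway controls of 24 against 4 months, Cyp3a9, a steroid hydroxylase. It averaged 815 ± 349 at 24 months and 2487 ± 268 at 4 months (SD, n = 3 each), 3.22-fold lower (adjusted p 0.0238), a call lost without any of the 4-month replicates 1, 2 and 3 or 24-month replicate 1 (adjusted p up to 0.0975). After toluene 1 gene passed at 12 months, Nr0b2, a nuclear receptor that represses bile acid synthesis. It averaged 392 ± 142 in dosed and 50.4 ± 10.6 in control rats, 7.57-fold higher (adjusted p 0.037), a call lost without any 1 of the 6 arrays (adjusted p up to 0.282).

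The change of Hsd3b5 with old age differed between the F344 and the Brown Norway rats. The log2 fold change of 24 against 6 months in F344 rats minus that of 24 against 4 months in Brown Norway controls was -5.27 (SE 0.38, adjusted p 1.73e-06), from -5.81 in F344 and -0.54 in Brown Norway rats. Hsd3b5 was the 1 enzyme of 5 that passed, where 0.189% of 7956 genes did, and the youngest ages differed between the strains. Gapdh ratios differed too, at 1.31 to 7.33 on F344 and 0.774 to 0.944 on Brown Norway arrays. Strain, youngest age and RNA integrity cannot be told apart in this comparison. From the steroid-related lists, Sult1e1, Cyp2c11, Cyp3a2 and Cyp2a2 passed the same test at -4.62, -3.65, -3.89 and -3.50. Cyp2c12 passed at 3.89 (adjusted p of these genes up to 0.0192). Some alternatives lost the calls of these genes, except that of Sult1e1. For Hsd11b1 the difference was -0.82 (95% interval -1.33 to -0.31, adjusted p 0.29), from -1.03 and -0.22. With the dosed in place of the control Brown Norway rats it was -1.27 (adjusted p 0.0292). For Hsd17b2 the difference was -1.66 (95% interval -3.54 to 0.22, adjusted p 0.727), and for Hsd17b6 it was -0.20 (adjusted p 0.911). For Cyp17a1 it was -0.26 (adjusted p 0.911). Since 11 of the 16 F344 arrays of Cyp17a1 were set to the floor, its test cannot decide whether the strains differed.

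**Figure D5:**
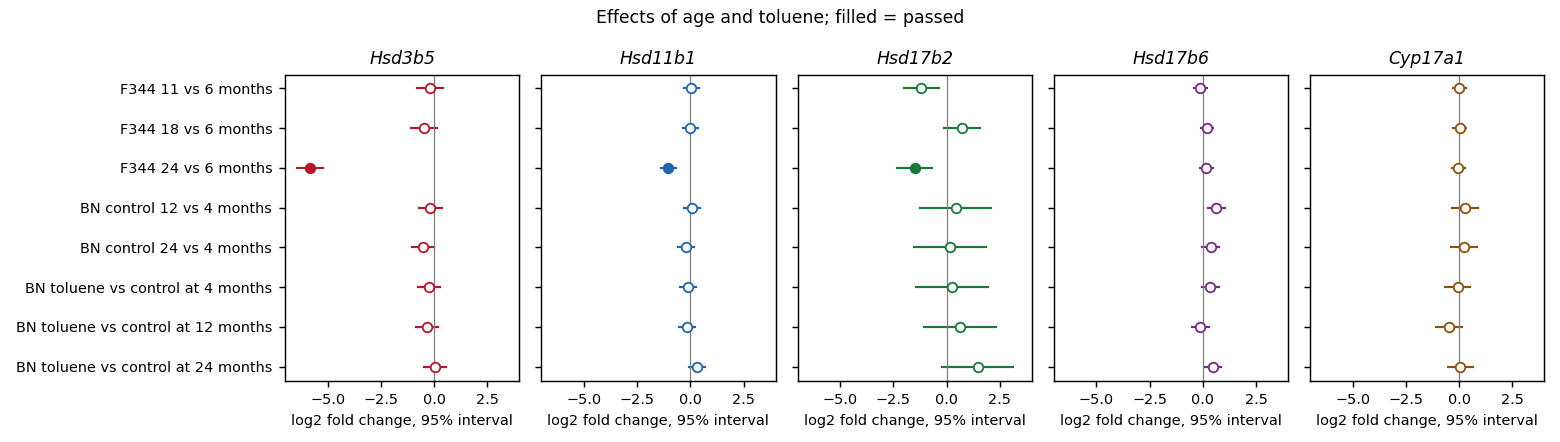
Log2 fold changes with 95% intervals of the 5 enzymes for age in F344 rats against 6 months, age in Brown Norway controls (BN) against 4 months, and toluene against control at each age, with filled points for those that passed. The points that passed are Hsd3b5, Hsd11b1 and Hsd17b2 in F344 rats of 24 against 6 months.

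Side by side over all arrays of a strain, Hsd3b5 had a median signal of 2106 in F344 and 2970.4 in Brown Norway rats, Hsd11b1 of 3405 and 3418, Hsd17b6 of 2815 and 3165, and Hsd17b2 of 1091 and 452. Cyp17a1, at 25.7 in F344 and 2339 in Brown Norway rats, had strain ranges that did not overlap. How many of all genes did so was not counted.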

How the data were processed

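RNA of 34 rat livers was measured on Affymetrix arrays. The deposited values are linear intensity values per probe set; per the submitters' processing notes MAS5 and RMA were used, with no version, role or order given. The genome build is not given in the sources used here, and no coordinates are printed. Of 24946 probe sets 17584 had 1 gene symbol, 393 several and 6916 none, beside 53 array controls. The probe set of highest mean log2 signal in a strain stood for its gene.

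Signals under 32 were set to 32. Genes above it on 4 or more F344 or 3 or more Brown Norway arrays were tested with limma 3.58.1 in R 4.3.3, on log2 values, with a mean per group within each strain and Benjamini-Hochberg adjustment over all genes. The p-values rest on arrays of separate animals. The share of all genes whose groups did not overlap was not counted in any comparison. The strain difference used the separate estimates and their standard errors. A fold is a lower bound if the lower of the compared groups had an array at the floor. Scripts were tested on simulated data.

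The enzymes, lists, markers and tests were chosen with earlier results of these data known. Genes to name were all listed enzymes, up to 4 of smallest p per list and comparison among those that passed, and the 3 closest in pattern. Some genes under that rule, such as Acox2 and Cyp3a18, passed and are counted but not described. Hsd11b2, Sds, Tat, Tsc22d3 and Fkbp5 were named after their values were seen. Alternatives changed the probe set choice, floor, filter, scaling, variance model, array weights, groups in the fit, Gapdh ratio and single arrays.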

Additional observations from a re-analysis of the deposited data

Results flagged for a closer look

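Among 20 groups of 4 F344 arrays, each an enzyme at an age, 1 had a value that stood apart from the other 3. It was Hsd17b2 in 6-month replicate 1, at 734, where the other 3 animals had 2265 to 2296, and its gap to the nearest of them was 0.98 of the group's range. Chance marks about 1 such group in 20. That array had a Gapdh ratio of 4.35. Its part in the value was not tested, and the log2 fold change of 24 against 6 months was -1.91 without it.

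The effect of old age on Hsd3b5 differed between the strains by -5.27 on the log2 scale in a test of the difference itself. F344 rats were at -5.81 and Brown Norway controls at -0.54. The difference was not particular to Hsd3b5, and Sult1e1 passed the same test at -4.62. Gapdh ratios were 1.31 to 7.33 in F344 and 0.774 to 0.944 in Brown Norway rats, so that strain and RNA integrity cannot be told apart across strains.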

How the results depend on the processing

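Hsd3b5 passed in each of the 3 F344 comparisons of 24 months under all 21 alternatives, with log2 fold changes of -6.12 to -4.32 against 6 months. Hsd11b1 passed under all 21 against 6 months, at -1.22 to -0.86. The strain difference of Hsd3b5 passed under all 28, at -5.63 to -3.79. In Brown Norway rats 0 enzymes passed in any age or toluene comparison under any of the 17 or 18 alternatives run. For F344 18 against 11 months the count of enzymes was 1 in place of 0 with log2(signal + 32), with a variance trend and robust moderation, with array weights and with the Gapdh ratio as a covariate, each time through Hsd17b2, and 0 to 1 with 1 array left out. For the strain difference it was 2 in place of 1 with dosed in place of control Brown Norway rats, an alternative chosen after seeing the data. The causes were not tested. For F344 24 against 6 months 2 to 3 enzymes passed, and likewise against 18 months, where it was 2 in a fit of only the groups compared. Over all genes, with 1 array left out, 392 to 644 genes passed for F344 24 against 6 months (681 with all arrays), 183 to 530 against 11 months (453) and 69 to 249 against 18 months (162). For 18 against 6 months it was 22 to 206 (99) and for 18 against 11 months 0 to 81 (27). In Brown Norway rats it was 0 to 137 for controls of 24 against 4 months (21), 0 to 48 against 12 months (2), and 1 to 48 for toluene at 24 months (5), and for the strain difference 9 to 28 (15). Under the other alternatives 407 to 1153 passed for F344 24 against 6 months. No result of these enzymes that had passed changed sign. No paired analysis was possible because the labels pair no animals across groups. The number of arrays limits the precision, and Cyp17a1 in F344 rats was too close to the floor to show a change.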
